A study of Homo sapiens with 24 samples.

Results

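The mevalonate arm of cholesterol synthesis was followed through 9 genes of the 14493 in the deposited count table, selected by gene symbol and taken in the order of the pathway as ACAT2, HMGCS1, MVK, PMVK, MVD, IDI1, FDPS, FDFT1, and SQLE. All 9 were counted in each of 24 libraries, with 282 to 34600 reads per gene and library, and all 9 passed the filter on low counts in each of 15 comparisons. Levels are given as CPM, reads of a gene relative to the size of its library after TMM scaling, and a gene was called higher or lower at a Benjamini-Hochberg adjusted p under 0.05 over all genes tested in edgeR's quasi-likelihood test.

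The arm begins in the cytosol, where acetyl-CoA units are joined to acetoacetyl-CoA by ACAT2 and extended to HMG-CoA by HMGCS1. Mevalonate is phosphorylated by MVK and PMVK and decarboxylated by MVD to isopentenyl diphosphate, which IDI1 isomerises and FDPS condenses to farnesyl diphosphate. Farnesyl diphosphate is a branch point, since it feeds protein prenylation, dolichol, and ubiquinone synthesis as well as squalene, which FDFT1 makes and SQLE oxidises on the way to sterols. Genes of the arm are textbook targets of SREBP-2, a transcription factor that is released from the endoplasmic reticulum when membrane sterol is low, and the arm draws on the same cytosolic acetyl-CoA as fatty acid synthesis.

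Transcript levels were measured by RNA-seq in SKBr3 cells, an established HER2-positive breast cancer line, in 8 groups of 3 replicates. Untreated proliferative cells were collected at day 0, untreated control cells at day 7, and treated cells at day 7 after fresh drug on day 3, a refeed in the labels. The labels of untreated cells name no refeed, so effects of the refeed and of a drug cannot be told apart. The treatments were the ACC inhibitor ND-646 at 250 nmol/L, the FASN inhibitor TVB-3166 at 250 nmol/L, the antibiotic bleomycin at 10 umol/L, the Aurora A kinase inhibitor alisertib at 500 nmol/L, the topoisomerase II inhibitor doxorubicin at 10 nmol/L, and the CDK4/6 inhibitor palbociclib, spelled Palboclib in the labels, at 1 umol/L. ND-646 and TVB-3166 cells are called FASTIS cells after the study's term for senescence induced by blocking fatty acid synthesis, and all values come from this single line with no drug vehicle group among the labels. In bulk RNA, fewer cells with a transcript and less transcript per cell cannot be told apart.

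Total counts per library were 29405121 to 44316330. Within groups, squared differences between libraries were 13.4 to 172 times the counting variance (chi-square per degree of freedom). The 4 largest of these 24 values, 146 or more, all involved day-0 replicate 1 or ND-646 replicate 1. In day-0 replicate 1 the 13 mitochondrially encoded protein genes took 8.01% of reads against 1.22% and 1.51% in the other day-0 libraries and 3.46% to 5.94% in FASTIS libraries, and ND-646 replicate 1 had the lowest TMM factor of all libraries, 0.791. Some values are also given without these libraries. Medians of gene lists are given with all libraries. Of the 7 listed markers of HER2-positive luminal epithelium, 6 were measured, with a summed level of 9938 to 20059 CPM, and the 1 fibroblast marker measured, COL1A1, was at 6.43 to 15.3 CPM. Against day-0 cells, none of the epithelial markers was higher and 2 were lower with ND-646, and 1 was higher and 3 were lower with TVB-3166. Over all genes tested, 19.1% were higher and 18.8% lower with ND-646, and 27.4% and 27.7% with TVB-3166. All 6 proliferation genes listed fell in both FASTIS groups, MKI67 by 3.70 and 2.34 on the log2 scale. Against day-0 cells all 6 also fell with bleomycin, doxorubicin, and palbociclib, and 5 with alisertib. The part that slower division or the mitochondrial share had in the results below was not tested.

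The promoters of the members are shown because 6 of the 9 genes moved together and because SREBP-2 is known to act on such promoters beside NF-Y and Sp1. Sequences are the 250 bases before an annotated start, 5′ to 3′ on the gene's strand, from RefSeq on GRCh38.p14, and 6 of the 9 genes matched, with none for ACAT2, FDFT1, and SQLE. Capitals mark CCAAT, the NF-Y motif, on either strand. For HMGCS1, which has 2 such windows, and IDI1, which has 3, the window with the most CCAAT is printed. FDPS, MVD, HMGCS1, and IDI1 were higher in both FASTIS groups, whereas MVK and PMVK passed the test in neither.
HMGCS1, chr5:43313413-43313662, minus strand: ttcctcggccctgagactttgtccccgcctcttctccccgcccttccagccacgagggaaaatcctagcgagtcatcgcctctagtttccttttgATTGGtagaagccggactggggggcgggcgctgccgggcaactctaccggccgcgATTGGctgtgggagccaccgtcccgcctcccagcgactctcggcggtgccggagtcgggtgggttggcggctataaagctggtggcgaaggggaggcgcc
MVK, chr12:109573544-109573793, plus strand: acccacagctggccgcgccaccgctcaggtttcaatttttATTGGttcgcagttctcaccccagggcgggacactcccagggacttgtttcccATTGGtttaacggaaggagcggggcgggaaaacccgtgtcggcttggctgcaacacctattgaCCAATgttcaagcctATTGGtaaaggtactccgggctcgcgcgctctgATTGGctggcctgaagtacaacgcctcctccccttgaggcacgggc
PMVK, chr1:154936720-154936969, minus strand: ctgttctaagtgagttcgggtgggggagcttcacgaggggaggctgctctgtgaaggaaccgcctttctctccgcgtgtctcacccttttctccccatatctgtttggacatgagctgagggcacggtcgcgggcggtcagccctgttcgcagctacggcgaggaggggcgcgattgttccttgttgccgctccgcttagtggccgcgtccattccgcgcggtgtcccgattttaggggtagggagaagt
MVD, chr16:88663092-88663341, minus strand: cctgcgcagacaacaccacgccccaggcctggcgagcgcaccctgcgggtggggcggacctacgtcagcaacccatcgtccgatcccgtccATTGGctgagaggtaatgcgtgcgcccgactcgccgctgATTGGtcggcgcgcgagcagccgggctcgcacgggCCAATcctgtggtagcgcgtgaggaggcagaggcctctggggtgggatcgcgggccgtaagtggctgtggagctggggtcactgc
IDI1, chr10:1048887-1049136, minus strand: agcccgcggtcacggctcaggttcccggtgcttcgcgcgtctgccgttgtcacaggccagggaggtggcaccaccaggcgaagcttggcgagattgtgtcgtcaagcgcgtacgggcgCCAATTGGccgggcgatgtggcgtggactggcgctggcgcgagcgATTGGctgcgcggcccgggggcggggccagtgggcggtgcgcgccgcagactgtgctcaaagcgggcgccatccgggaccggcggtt
FDPS, chr1:155308616-155308865, plus strand: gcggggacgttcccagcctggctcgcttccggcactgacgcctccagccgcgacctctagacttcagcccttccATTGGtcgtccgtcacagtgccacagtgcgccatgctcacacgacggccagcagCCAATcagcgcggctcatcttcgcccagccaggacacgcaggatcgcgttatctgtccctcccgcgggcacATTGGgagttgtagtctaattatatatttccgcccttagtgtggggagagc

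CCAAT occurred 5 times in the MVK window, 3 times each in the FDPS, MVD, and printed IDI1 windows, 2 times in the printed HMGCS1 window, and not at all in that of PMVK. Of 35093 windows of the same length, 32.0% held CCAAT at least once, 9.52% at least 2 times, and 2.92% at least 3 times. In the IDI1 window 2 of the 3 matches overlap on opposite strands. The other windows held 2 and 0 matches for IDI1 and 0 for HMGCS1. The Sp1 motif GGGCGG was found in every member window, against 42.6% of all windows. Neither TCACNCCAC, a strict form of the sterol response element found in 0.883% of all windows, nor the E-box CACGTG, found in 6.34%, occurred in a member window, on either strand, which says only that these letters are absent there. MVK held the most CCAAT matches and PMVK none, and both were called in neither FASTIS group. A link between matches and measured changes was not tested, and ACAT2, FDFT1, and SQLE had no window.

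Against day-0 cells, the same 6 members rose with each inhibitor of fatty acid synthesis, namely HMGCS1, MVD, IDI1, FDPS, FDFT1, and SQLE, and all 6 rose at least 2-fold in both, HMGCS1 in ND-646 cells by little more. The changes were 1.04 to 2.26 on the log2 scale in ND-646 cells and 1.50 to 2.26 in TVB-3166 cells. None of the 9 was lower in either group by edgeR or DESeq2, or at an unadjusted p under 0.05. Over all genes tested, 19.1% were higher and 18.8% lower in ND-646 cells, and 27.4% were higher and 27.7% lower in TVB-3166 cells, so that 6 of 9 higher members stood against these shares. The median log2 fold-change of the members was 1.47 in ND-646 cells and 1.78 in TVB-3166 cells, beside 0.02 and -0.01 over all genes tested. Both comparisons use the same day-0 libraries. All 6 calls held in ND-646 cells without ND-646 replicate 1, without day-0 replicate 1, and without both, but HMGCS1 was then under 2-fold, at 0.92 without the first and 0.96 without both. Without ND-646 replicate 1, IDI1 went from 1.70 to 1.48, FDFT1 from 1.85 to 1.45, and SQLE from 1.47 to 1.16 in ND-646 cells.

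**Figure D1:**
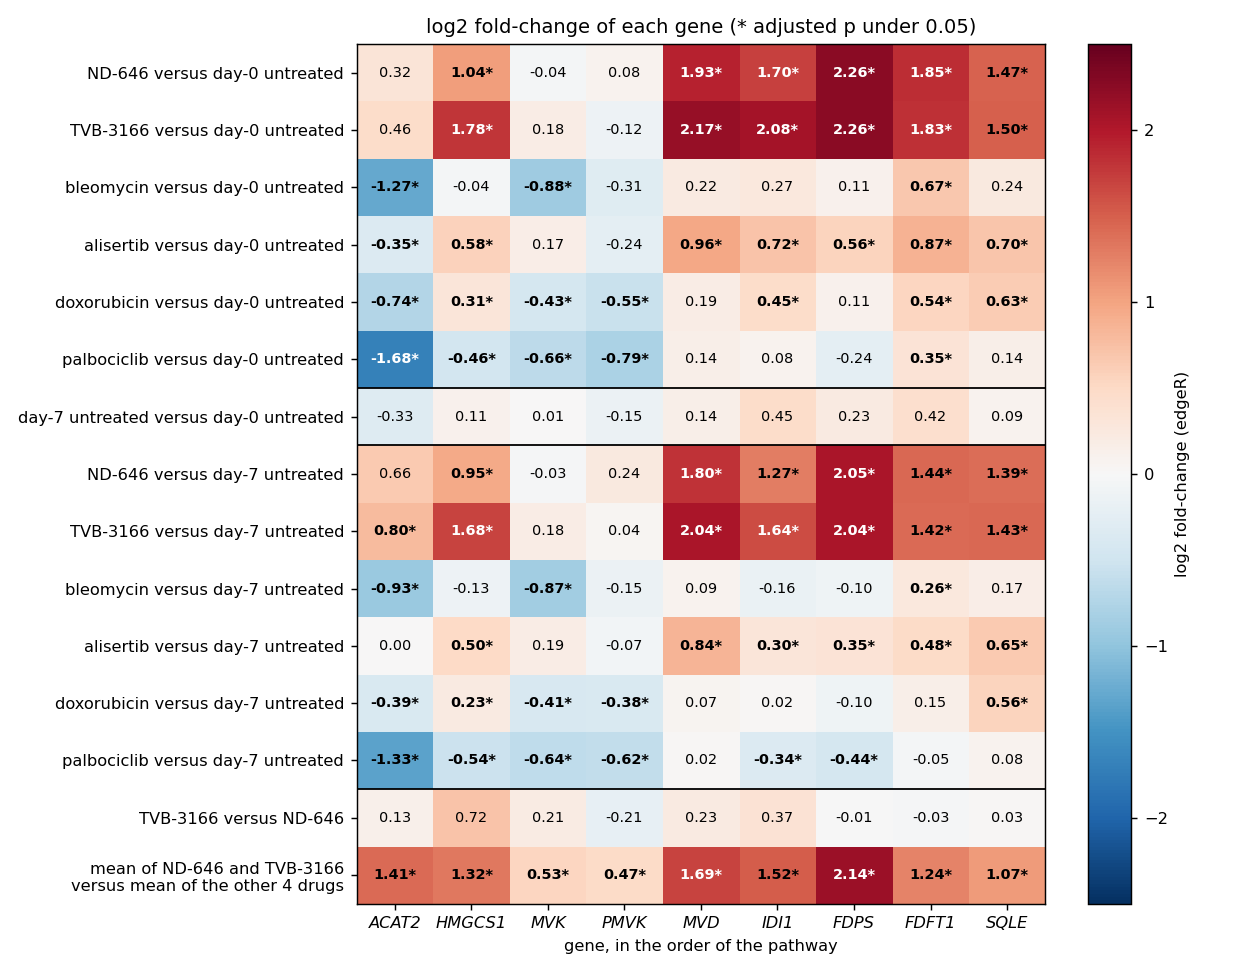
Log2 fold-change of each of the 9 genes (columns, in pathway order) in 15 comparisons (rows), with an asterisk where the edgeR adjusted p was under 0.05. Both FASTIS rows against day-0 cells hold 6 red cells between 1.04 and 2.26, from HMGCS1 and from MVD through SQLE, while ACAT2, MVK, and PMVK stay between -0.12 and 0.46.

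At the entry step, ACAT2, the cytosolic thiolase (chr6:160183077-160200144 on GRCh37, plus strand), fell with most of the other drugs and was called in neither FASTIS group against day-0 cells. It was at 45.5, 34.8, and 36.5 CPM in day-0 replicates 1 to 3, at 77.4, 22.5, and 47.5 CPM in ND-646 cells, and at 75.9, 37.1, and 47.5 CPM in TVB-3166 cells. The FASTIS libraries spread from below to above all day-0 libraries. Its log2 fold-change against day-0 cells was 0.32 (SE 0.36, edgeR adjusted p = 0.514) in ND-646 cells and 0.46 (SE 0.21, edgeR adjusted p = 0.0876) in TVB-3166 cells. Without ND-646 replicate 1 the former was -0.16 (edgeR adjusted p = 0.626). The latter passed the threshold at 0.59 without day-0 replicate 1 and at 0.67 without TVB-3166 replicate 2 (edgeR adjusted p = 0.027 and 0.0145). Against day-7 cells, which were at 33.5, 26.6, and 32.5 CPM, ACAT2 was higher in TVB-3166 cells at 0.80 (SE 0.21, edgeR adjusted p = 0.00804), with no overlap of libraries.

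ACAT2 was lowest in palbociclib cells, at 15.7, 8.95, and 11.7 CPM, and next lowest in bleomycin cells, at 20.6, 10.7, and 17.1 CPM. It fell by 1.68 on the log2 scale in palbociclib cells (SE 0.19, edgeR adjusted p = 5.69e-05), by 1.27 in bleomycin cells (SE 0.22, adjusted p = 0.00118), and by 0.74 in doxorubicin cells (SE 0.12, adjusted p = 0.000709). Among members, only ACAT2 fell at least 2-fold against day-0 cells, which it did with palbociclib and bleomycin. In alisertib cells its value of -0.35 (SE 0.13, edgeR adjusted p = 0.0496) lay at the threshold and lost the call in 10 of 13 alternatives, among them those without alisertib replicate 2 or 3 or without any 1 of the day-0 libraries.

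HMGCS1, the cytosolic HMG-CoA synthase (chr5:43287572-43313614 on GRCh37, minus strand), rose in both FASTIS groups and was the member that differed most between them. Its CPM was 95.2, 81.8, and 90.8 in day-0 cells, 216, 131, and 209 in ND-646 cells, and 409, 215, and 289.7 in TVB-3166 cells. Every FASTIS library lay above every untreated library. The log2 fold-change against day-0 cells was 1.04 (SE 0.20, edgeR adjusted p = 0.00366) with ND-646 and 1.78 (SE 0.19, edgeR adjusted p = 2.08e-05) with TVB-3166. With alisertib, at 143, 129.6, and 129 CPM, HMGCS1 rose by 0.58 (edgeR adjusted p = 0.00108), and these libraries reached the lowest ND-646 library. Palbociclib cells, at 66.7, 61.5, and 66.5 CPM, were the only group in which it fell against day-0 cells, at -0.46 (edgeR adjusted p = 0.00193).

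The kinases of the arm were called in neither FASTIS group, unlike the enzymes around them. MVK, the mevalonate kinase (chr12:110011060-110035930 on GRCh37, plus strand), was at 71.9, 76.5, and 71.1 CPM in day-0 cells, 109, 43.6, and 62.3 CPM in ND-646 cells, and 104, 61.5, and 81.9 CPM in TVB-3166 cells. Replicate 1 was the highest library in both FASTIS groups, and replicate 2 lay below every day-0 library in both. The log2 fold-change was -0.04 (95% interval -0.69 to 0.60) with ND-646 and 0.18 (-0.16 to 0.52) with TVB-3166, neither called (edgeR adjusted p = 0.923 and 0.35). Without ND-646 replicate 1, MVK was lower in ND-646 cells, at -0.47 (edgeR adjusted p = 0.0225), and without TVB-3166 replicate 2 it was higher in TVB-3166 cells, at 0.35 (adjusted p = 0.0415), so that 1 library decided each call.

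MVK fell in bleomycin cells, at 50.8, 32.7, and 35.2 CPM, by 0.88 on the log2 scale (SE 0.16, edgeR adjusted p = 0.00153). It also fell by 0.66 with palbociclib (adjusted p = 0.000213) and by 0.43 with doxorubicin (adjusted p = 0.00296), and was at 0.17 (edgeR adjusted p = 0.145) with alisertib. PMVK, the phosphomevalonate kinase (chr1:154897216-154909195 on GRCh37, minus strand), was at 51.7, 44.5, and 35.1 CPM in day-0 cells, 65.0, 38.5, and 36.6 CPM in ND-646 cells, and 40.4, 40.6, and 39.5 CPM in TVB-3166 cells. The TVB-3166 libraries lay inside the day-0 range, and only ND-646 replicate 1 lay above it. The PMVK difference from day-0 cells was 0.08 (95% interval -0.47 to 0.63) with ND-646 and -0.12 (-0.40 to 0.17) with TVB-3166, the former being -0.22 without ND-646 replicate 1. PMVK fell by 0.79 with palbociclib (edgeR adjusted p = 0.00103) and by 0.55 with doxorubicin (adjusted p = 0.0124).

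The steps that make and isomerise isopentenyl diphosphate rose strongly in FASTIS cells. MVD, the mevalonate diphosphate decarboxylase (chr16:88718343-88729569 on GRCh37, minus strand), was at 35.0, 33.8, and 27.2 CPM in day-0 cells, and reached 199.7, 61.4, and 108 CPM with ND-646 and 202, 82.0, and 147 CPM with TVB-3166. All 6 FASTIS libraries were above all untreated, bleomycin, doxorubicin, and palbociclib libraries, and ND-646 replicate 2 lay among the alisertib libraries. The log2 fold-change was 1.93 (SE 0.37, edgeR adjusted p = 0.00361) and 2.17 (SE 0.26, edgeR adjusted p = 4.26e-05). Without ND-646 replicate 1 the former was 1.40. MVD was also the member that rose most with alisertib, by 0.96 (SE 0.11, edgeR adjusted p = 0.00026), from 32.0 ± 4.19 to 62.4 ± 3.60 CPM (mean ± SD, n = 3).

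IDI1, the isopentenyl diphosphate isomerase (chr10:1085092-1095059 on GRCh37, minus strand), was at 169, 169, and 207 CPM in day-0 cells and 226, 253, and 257 CPM in day-7 cells. It was at 768, 414, and 598 CPM with ND-646 and 967, 607, and 711 CPM with TVB-3166, and no FASTIS library overlapped any other group. Against day-0 cells the log2 fold-change was 1.70 (SE 0.23, edgeR adjusted p = 0.000688) and 2.08 (SE 0.17, edgeR adjusted p = 2.93e-06), and against day-7 cells it was 1.27 (edgeR adjusted p = 0.00297) and 1.64 (edgeR adjusted p = 7.41e-06). The values against day-7 cells were smaller, IDI1 being 1.36-fold as high in day-7 as in day-0 cells (edgeR adjusted p = 0.0751). With doxorubicin the call differed by reference, as IDI1 was at 0.45 (edgeR adjusted p = 0.00491) against day-0 cells and at 0.02 (edgeR adjusted p = 0.831) against day-7 cells.

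FDPS, the farnesyl diphosphate synthase at the branch point (chr1:155278539-155290457 on GRCh37, plus strand), had the largest rise of the 9 members in both FASTIS groups. It was at 171, 171, and 156 CPM in day-0 cells and at 204, 184, and 192 CPM in day-7 cells. It reached 1361, 361, and 681 CPM with ND-646 and 1157, 494, and 719.9 CPM with TVB-3166. Replicate 1 was the highest and replicate 2 the lowest library in each FASTIS group, yet the lowest of these, at 361 CPM, exceeded every library of the other groups. The log2 fold-change was 2.26 (SE 0.41, edgeR adjusted p = 0.00284) with ND-646 and 2.26 (SE 0.24, edgeR adjusted p = 2.18e-05) with TVB-3166. The ND-646 value was 1.65 without its replicate 1 (adjusted p = 0.000171). With the other drugs FDPS rose with alisertib alone, by 0.56 (edgeR adjusted p = 0.00112), which was not called when all 24 libraries were fitted together (adjusted p = 0.157).

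The squalene steps rose with the steps before them. FDFT1, the squalene synthase (chr8:11653082-11696904 on GRCh37, plus strand), was at 113, 126, and 118 CPM in day-0 cells, 644, 270.0, and 379.8 CPM with ND-646, and 531, 319, and 411 CPM with TVB-3166. No FASTIS library overlapped a library of another group. Its log2 fold-change was 1.85 (SE 0.28, edgeR adjusted p = 0.0013) and 1.83 (SE 0.16, edgeR adjusted p = 5.14e-06). FDFT1 was also the 1 member called higher in all 6 drug groups against day-0 cells, at 0.67 (edgeR adjusted p = 0.000692) with bleomycin, 0.87 (edgeR adjusted p = 0.000117) with alisertib, 0.54 (edgeR adjusted p = 0.00066) with doxorubicin, and 0.35 (edgeR adjusted p = 0.00697) with palbociclib, the last of which was not called with all 24 libraries in one fit (adjusted p = 0.143). Day-0 cells were the lowest group for FDFT1, and against day-7 cells, at 164, 156, and 154 CPM, the palbociclib value was -0.05 (edgeR adjusted p = 0.605) and the doxorubicin value 0.15 (edgeR adjusted p = 0.135).

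SQLE, the squalene epoxidase that introduces the first oxygen (chr8:126010739-126034525 on GRCh37, plus strand), was at 313, 252, and 300.0 CPM in day-0 cells. It was at 1112, 521, and 773 CPM with ND-646 and at 1005, 621, and 815 CPM with TVB-3166, with no overlap with any other group. The log2 fold-change was 1.47 (SE 0.26, edgeR adjusted p = 0.00275) and 1.50 (SE 0.16, edgeR adjusted p = 2.42e-05). Unlike IDI1, SQLE rose with doxorubicin against both controls, at 451, 394, and 481 CPM, by 0.63 against day-0 and 0.56 against day-7 cells (edgeR adjusted p = 0.00163 and 0.000395).

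**Figure D2:**
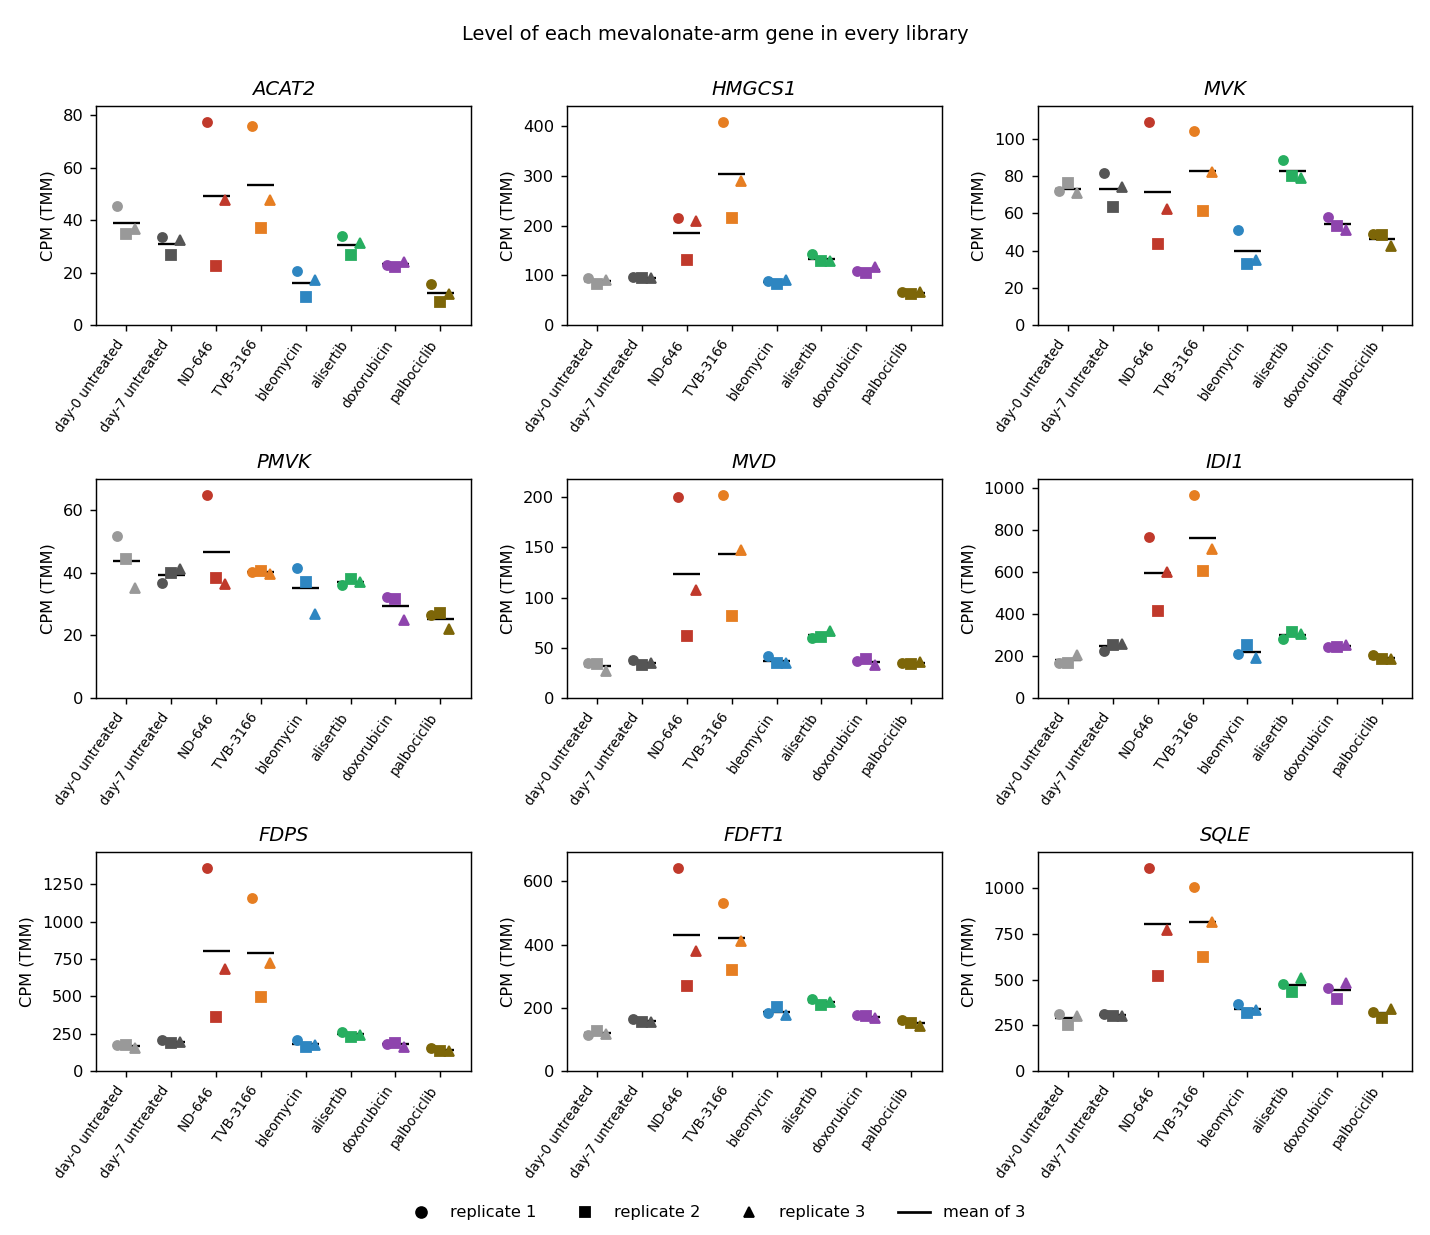
CPM (TMM-scaled, linear axis from 0) of each gene in every library of the 8 groups, with a line at the mean of 3. The FASTIS points stand above all other groups for IDI1, FDPS, FDFT1, and SQLE, while those of MVK and PMVK overlap the untreated points, and replicate 1 (circle) is the highest in both FASTIS groups for 8 of the 9 genes.

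The other 4 drugs gave different pictures of the arm against day-0 cells. Alisertib came closest to the FASTIS pattern in its list of genes, with the same 6 members higher and 1, ACAT2, lower, but none of the 6 reached 2-fold and their log2 fold-changes were 0.56 to 0.96, where 17.7% of all genes were higher and 19.6% lower. In doxorubicin cells 4 members were higher, namely HMGCS1, IDI1, FDFT1, and SQLE, and ACAT2, MVK, and PMVK were lower, beside 23.7% and 24.8% of all genes. In bleomycin cells 1 was higher and 2 were lower (24.1% and 25.3% of all genes), and in palbociclib cells 1 was higher and 4 were lower (26.0% and 27.2%). These 4 comparisons and those of FASTIS cells share the day-0 libraries. The members' medians were 0.58 with alisertib, 0.19 with doxorubicin, 0.11 with bleomycin, and -0.24 with palbociclib, against medians of all genes between -0.01 and 0.01. The smallest of these calls, HMGCS1 with doxorubicin at 0.31 (edgeR adjusted p = 0.0165), was lost without day-0 replicate 2, without doxorubicin replicate 1, and without doxorubicin replicate 3 (0.25 to 0.31, adjusted p of 0.06 to 0.0741), and PMVK with doxorubicin was lost without doxorubicin replicate 3 (-0.44, edgeR adjusted p = 0.0545).

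Untreated cells at day 7 and day 0 were compared to see what 7 days of culture did without drug. No member was called by edgeR, with 0.389% of all genes higher and 0.198% lower, although 3 were higher and 1 was lower at an unadjusted p under 0.05. FDFT1, at 0.42 (SE 0.08, edgeR adjusted p = 0.0551), and IDI1, at 0.45 (SE 0.11, edgeR adjusted p = 0.0751), were just short of the threshold, and DESeq2 called both (adjusted p = 0.00257 and 0.00779). For both genes the day-7 libraries lay wholly above the day-0 libraries.

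Day-7 cells share the collection day of the treated cells, but their labels name no refeed. With them as the reference the FASTIS result was similar, as 6 members were higher in ND-646 cells and 7 in TVB-3166 cells, none lower. Over all genes, 17.2% and 25.4% were higher and 17.1% and 26.1% lower. The members' medians were 1.27 and 1.43. In ND-646 cells HMGCS1, at 0.95 (edgeR adjusted p = 0.00603), was then under 2-fold. Without ND-646 replicate 1 the 6 members stayed called in ND-646 cells, from 0.82 for HMGCS1 to 1.42 for FDPS, and MVK was lower, at -0.47 (edgeR adjusted p = 0.021). Alisertib kept 6 higher and had 0 lower (9.55% and 9.49% of all genes), and DESeq2 and an unadjusted p under 0.05 gave 0 lower as well. With all 24 libraries in one fit, however, 1 of the 6, SQLE, was called. That fit uses a variance per gene shared by all groups, and the sum of the members spread far more in FASTIS groups than elsewhere. What part this had in the lost calls was not tested. IDI1, at 0.30 (edgeR adjusted p = 0.0245), was also lost on leaving out alisertib replicate 2 or 3 or day-7 replicate 1 or 3 (0.23 to 0.34). Doxorubicin had 2 higher and 3 lower (21.9% and 21.5%), and bleomycin 1 higher and 2 lower (22.4% and 23.2%). Palbociclib cells had 0 members higher and 6 lower, where 22.0% of all genes were higher and 22.9% lower. IDI1 and FDPS joined ACAT2, HMGCS1, MVK, and PMVK among them, at -0.34 (edgeR adjusted p = 0.00618) and -0.44 (edgeR adjusted p = 0.00117), while MVD, FDFT1, and SQLE were between -0.05 and 0.08. With all 24 libraries in one fit, IDI1 and FDPS were not called with palbociclib (edgeR adjusted p = 0.117 and 0.25). The bleomycin call was FDFT1, at 0.26 (edgeR adjusted p = 0.0341), and it was lost on leaving out bleomycin replicate 1 or 2 or any day-7 library. HMGCS1 with doxorubicin, at 0.23 (edgeR adjusted p = 0.0276), was likewise lost on leaving out doxorubicin replicate 1 or 3 or day-7 replicate 2 or 3.

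TVB-3166 and ND-646 cells were compared directly, since their targets are successive enzymes of fatty acid synthesis. No member was called by edgeR or DESeq2, and 1, HMGCS1, had an unadjusted p under 0.05, while 0.520% of all genes were higher in TVB-3166 cells and 0.198% lower. HMGCS1 was 1.65-fold higher on average with TVB-3166, a log2 difference of 0.72 (95% interval 0.10 to 1.35, edgeR adjusted p = 0.27). Without ND-646 replicate 1 no member was called either, but every member was higher with TVB-3166, from 0.10 for PMVK to 0.85 for HMGCS1 (edgeR adjusted p = 0.0534). FDPS then went from -0.01 to 0.61, MVD from 0.23 to 0.77, and ACAT2 from 0.13 to 0.62, so that 1 library decided how close the 2 groups were. Same-numbered libraries of these groups deviated together, and with the replicate number as a block HMGCS1 was called, at 0.71 (edgeR adjusted p = 0.0445), as the only member. Without the block, the 95% intervals of HMGCS1 (0.10 to 1.35), ACAT2 (-0.86 to 1.13), MVD (-0.80 to 1.27), and FDPS (-1.12 to 1.09) included a 2-fold difference. Those of the other 5 members did not, the narrowest being that of PMVK (-0.71 to 0.30). With the block the intervals were narrower, -0.25 to 0.46 for FDPS, 0.00 to 0.60 for MVD, -0.17 to 0.63 for ACAT2, 0.11 to 0.65 for IDI1, and -0.22 to 0.35 for SQLE.

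Whether FASTIS cells differed from the cells of the other 4 drugs was tested as 1 contrast of group means over all 24 libraries. All 9 members were higher in FASTIS cells, 7 of them at least 2-fold, against 26.3% of all genes higher and 24.7% lower. The largest difference was that of FDPS, at 2.14 (SE 0.17, edgeR adjusted p = 2.74e-09), followed by MVD at 1.69 (SE 0.17, edgeR adjusted p = 3.56e-08) and IDI1 at 1.52 (SE 0.10, edgeR adjusted p = 1.79e-10). SE and p of this contrast rest on a variance per gene shared by all groups. Against day-0 cells alone the SE of FDPS was larger, 0.41 with ND-646 and 0.24 with TVB-3166. Without ND-646 replicate 1 all 9 were still called, FDPS at 1.82, MVK at 0.31, and PMVK at 0.30, and SQLE, at 0.90, was under 2-fold. ACAT2, at 1.41 (SE 0.18, edgeR adjusted p = 1.71e-06), MVK, at 0.53 (SE 0.14, edgeR adjusted p = 0.0027), and PMVK, at 0.47 (SE 0.11, edgeR adjusted p = 0.00138), passed here although no FASTIS group differed from day-0 cells in them. For MVK the means in day-0, day-7, ND-646, and TVB-3166 cells were 73.2 ± 2.90, 73.1 ± 8.97, 71.6 ± 33.7, and 82.6 ± 21.4 CPM (± SD, n = 3), whereas bleomycin, doxorubicin, and palbociclib cells were at 39.6 ± 9.85, 54.0 ± 3.53, and 46.5 ± 3.61 CPM. The MVK contrast therefore lay between FASTIS cells near the untreated level and 3 drug groups below it, while alisertib cells were at 82.4 ± 5.21 CPM.

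The levels of the 9 genes were added up in each library as a measure of the arm as a whole. It was 1032 ± 39.3 CPM in day-0 cells and 1175 ± 19.8 CPM in day-7 cells (mean ± SD, n = 3). ND-646 libraries summed to 4552, 1863, and 2894 CPM and TVB-3166 libraries to 4492, 2478, and 3262 CPM, means of 3103 ± 1357 and 3411 ± 1015 CPM, which were 3.01 and 3.31 times the day-0 mean. Without ND-646 replicate 1 the ND-646 mean was 2379 CPM, 2.31 times the day-0 mean. Alisertib cells were next at 1579 ± 53.9 CPM, followed by doxorubicin cells at 1289 ± 37.2 CPM, bleomycin cells at 1137 ± 69.0 CPM, and palbociclib cells at 986 ± 47.8 CPM. Of the neighbouring groups in this order, TVB-3166 and ND-646, day-7 and bleomycin, and day-0 and palbociclib overlapped in their libraries, and the other 4 neighbouring pairs did not. The SD in FASTIS groups was many times that of every other group, 1357 and 1015 CPM against 19.8 to 69.0 CPM.

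**Figure D3:**
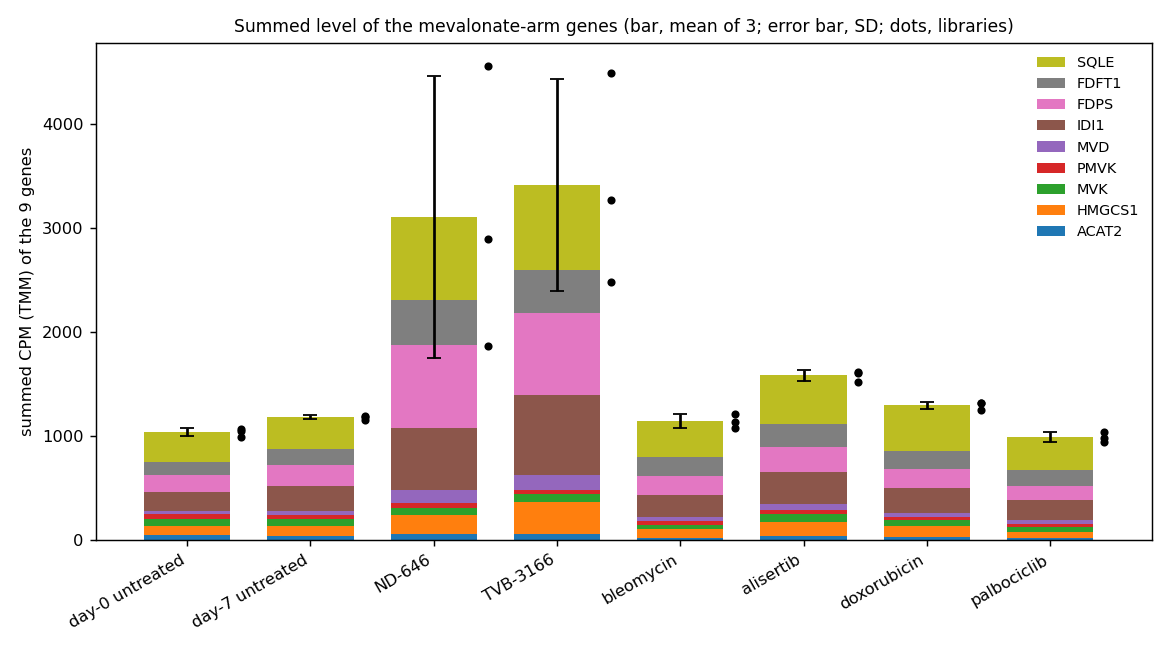
Summed CPM of the 9 genes by group, each bar stacked by gene (mean of 3 libraries), with the SD of the sum as the error bar and the 3 libraries as dots. The FASTIS bars reach 3103 and 3411 CPM with libraries from 1863 to 4552 CPM, and every one of these lies above the alisertib libraries at 1517 to 1614 CPM.

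FDPS made up a larger part of the sum in FASTIS cells than in untreated cells, given here as a description with no test. It supplied 16.1% ± 1.15 of the summed CPM in day-0 cells, 24.3% ± 5.29 in ND-646 cells, and 22.6% ± 2.95 in TVB-3166 cells (SD, n = 3), and 21.5% in ND-646 cells without replicate 1. The share of MVK was smaller, going from 7.11% ± 0.547 to 2.30% ± 0.126 and 2.44% ± 0.101. SQLE took the largest share of the reads in each group, a quantity not corrected for length, with 27.9% ± 2.09 in day-0 cells and 34.2% ± 2.53 in doxorubicin cells. Per kilobase of annotated exon, a scale that allows levels of different genes to be compared, SQLE was also the highest in day-0 cells, at 67.0 CPM per kb (union of annotated exons), ahead of FDPS at 44.6, PMVK at 43.7, and IDI1 at 42.2 CPM per kb. In ND-646 cells FDPS was at 215 and SQLE at 186 CPM per kb, an order that 1 library decided, since without ND-646 replicate 1 SQLE was at 150.3 and FDPS at 140.1 CPM per kb. PMVK, at 46.6 CPM per kb, stood behind FDFT1 at 84.9 CPM per kb. MVD and MVK were lowest in day-0 cells, at 6.78 and 8.12 CPM per kb. Exon lengths are unions over all annotated isoforms, which understates genes with long rare isoforms.

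Each member's order of groups was read from the means. TVB-3166 and ND-646 held the highest 2 places for ACAT2, HMGCS1, MVD, IDI1, FDPS, FDFT1, and SQLE, and their libraries overlapped each other in every case. Alisertib was in the third place for all of these but ACAT2, where it was the fifth. At the low end, palbociclib was the last group for ACAT2, HMGCS1, PMVK, and FDPS, bleomycin for MVK, and day-0 cells for MVD, IDI1, FDFT1, and SQLE. The groups were most distinct for FDFT1, with 5 of 7 neighbouring pairs free of overlap, and least for PMVK, with 0 of 7.

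Across the 24 libraries, which share groups and scaling, the log2 CPM of HMGCS1, MVD, IDI1, FDPS, FDFT1, and SQLE was correlated at r = 0.88 to 0.97 in every pair, as a description. MVK and PMVK correlated with these 6 at 0.35 to 0.59 and with each other at 0.63. ACAT2 stood between, with r = 0.85 to MVK and 0.57 to 0.78 to the 6. The replicates of FASTIS cells were part of this, because replicate 1 was the highest in the sum of both groups and replicate 2 the lowest. Over the 8 group means, the genes outside the arm whose pattern was most like the mean standardised pattern of the members, among 12599 genes with a mean of at least 1 CPM, were HSD17B7 (r = 0.998), CCDC149 (0.979), PRR15 (0.975), PHF2 (0.974), and LYPD3 (0.971). HSD17B7, which encodes a sterol reductase of the later cholesterol pathway, had a mean log2 CPM of 2.70 in day-0 cells, 3.61 and 3.88 in ND-646 and TVB-3166 cells, and 2.28 in palbociclib cells. LYPD3 covered a wider range, from 6.18 with palbociclib to 8.38 with TVB-3166, and PHF2 a narrow one, from 5.01 to 5.53.

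The genes before and after the arm were read from lists of the same pathway, beside the same shares of all genes as above, 19.1% higher and 18.8% lower with ND-646 and 27.4% higher and 27.7% lower with TVB-3166 against day-0 cells. Downstream, among 10 enzymes that turn squalene epoxide into cholesterol, 6 were higher with ND-646 and 7 with TVB-3166 against day-0 cells and none was lower, with list medians of 1.10 and 1.07. Against day-7 cells 7 and 8 were higher and none lower. MSMO1, a sterol methyl oxidase, rose most, by 2.55 (SE 0.27, edgeR adjusted p = 0.000206) and 2.75 (SE 0.19, edgeR adjusted p = 1.06e-06), followed by LSS, the lanosterol synthase, by 1.60 (SE 0.21, edgeR adjusted p = 0.000617) and 1.91 (SE 0.16, edgeR adjusted p = 3.37e-06). MSMO1 thus went from 77.0 ± 9.97 CPM in day-0 cells to 453 ± 172 and 515 ± 142 CPM. In the contrast of FASTIS cells with the other drugs all 10 were higher, with a median of 0.82 beside 1.32 for the arm. Rises were also seen outside FASTIS cells. Against day-0 cells, 6 of the 10 were higher and 0 lower with alisertib, with a median of 0.51 (17.7% and 19.6% of all genes). Doxorubicin had 5 higher and 2 lower (23.7% and 24.8%), palbociclib 5 and 2 (26.0% and 27.2%), and bleomycin 4 and 2 (24.1% and 25.3%).

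The isoprenoid branch leaves at farnesyl diphosphate. Of 14 genes for prenyl chains, prenylation, dolichol, and ubiquinone, 2 were higher and 6 lower in ND-646 cells and 1 was higher and 7 were lower in TVB-3166 cells, where 18.8% and 27.7% of all genes were lower. Against day-7 cells 1 was higher in each and 4 and 6 were lower, where 17.1% and 26.1% of all genes were lower. PDSS1, which makes the ubiquinone side chain, was at -2.14 (SE 0.17, edgeR adjusted p = 4.47e-05) and -1.54 (SE 0.12, edgeR adjusted p = 2.27e-06), and COQ2, which attaches it, at -1.29 (edgeR adjusted p = 0.00331) and -1.14 (edgeR adjusted p = 5.46e-05). Falls were also seen outside FASTIS cells, as 7 or 8 of the 14 were also lower with each of the other 4 drugs against day-0 cells, PDSS1 and COQ2 among them. Of all genes, 19.6% (alisertib) to 27.2% (palbociclib) were lower there. Against day-7 cells 1 of the 14 was lower with alisertib (9.49% of all genes), 4 with doxorubicin (21.5%), 4 with bleomycin (23.2%), and 7 with palbociclib (22.9%). GGPS1, which makes geranylgeranyl diphosphate, rose in both FASTIS groups, by 0.50 and 0.46 (edgeR adjusted p = 0.0443 and 0.00471).

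Of 7 genes of sterol sensing and SREBP processing, 4 were higher and none lower in each FASTIS group. INSIG1, which holds the SREBP complex in the endoplasmic reticulum and is itself a sterol-regulated gene, rose by 2.65 (SE 0.28, edgeR adjusted p = 0.00019) and 2.75 (SE 0.17, edgeR adjusted p = 6.65e-07), and SREBF1, which encodes SREBP-1, rose by 1.90 (edgeR adjusted p = 0.000302) and 1.71 (edgeR adjusted p = 7.82e-06). SREBF2, which encodes SREBP-2, rose less, by 0.61 (edgeR adjusted p = 0.0146) and 0.69 (edgeR adjusted p = 0.000369), and was also higher with alisertib, by 0.41 (edgeR adjusted p = 0.00717). INSIG1 was itself higher in day-7 than in day-0 cells, by 0.84 (edgeR adjusted p = 0.0315), and against day-7 cells it rose by 1.82 and 1.92 (edgeR adjusted p = 0.00156 and 3.66e-06). SREBF2 against day-7 cells was at 0.34 (edgeR adjusted p = 0.0948) and 0.41 (edgeR adjusted p = 0.00425), and 3 and 4 genes of the list were higher. With alisertib 4 of the 7 were higher against day-0 cells, with doxorubicin and palbociclib 3 each, and with bleomycin 1, and none was lower (17.7%, 23.7%, 26.0%, and 24.1% of all genes were higher). Mean INSIG1 was 51.0 CPM in day-0 cells, 322 and 343 CPM in ND-646 and TVB-3166 cells, and 67.7 (palbociclib) to 139 CPM (alisertib) with the other drugs. Of 3 genes of cytosolic acetyl-CoA supply, 1 was higher with ND-646 and all 3 with TVB-3166. ACSS2, the cytosolic acetyl-CoA synthetase, rose by 1.91 (SE 0.25, edgeR adjusted p = 0.000541) and 2.37 (SE 0.19, edgeR adjusted p = 3.42e-06), and SLC25A1, the citrate carrier, was at 0.57 (edgeR adjusted p = 0.15) and 0.78 (edgeR adjusted p = 0.00148).

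Some members share sequence with other genes, and the counting settings, strand use included, are not stated, so reads in the shared stretches cannot be assigned. ACAT2 overlaps TCP1, a chaperonin subunit on the opposite strand, over 454 of its exonic bases, and SOD2, a mitochondrial superoxide dismutase also on the opposite strand, over 133. TCP1 was at -0.66 (edgeR adjusted p = 0.0381) and -0.95 (edgeR adjusted p = 2.3e-05) against day-0 cells, and was lower with all 6 drugs, while SOD2 was at -0.27 (edgeR adjusted p = 0.225) and -0.25 (edgeR adjusted p = 0.0549). Mean TCP1 was 604 CPM in day-0 cells, where ACAT2 was at 38.9 CPM, and 312 to 400 CPM in the drug groups. What part TCP1 reads had in the ACAT2 counts, and so in the ACAT2 falls above, was not tested. MVK overlaps MMAB, a cobalamin enzyme gene on the opposite strand, over 317 exonic bases. MMAB was at 0.57 (edgeR adjusted p = 0.0961) and 0.52 (edgeR adjusted p = 0.00242). FDPS overlaps the antisense RNA gene RUSC1-AS1 over 1417 exonic bases, and RUSC1-AS1 rose by 1.77 (edgeR adjusted p = 0.00543) and 2.34 (edgeR adjusted p = 0.000128). Its level was 0.718 ± 0.21 CPM in day-0 cells, 2.46 ± 0.815 CPM with ND-646, and 3.63 ± 1.17 CPM with TVB-3166. HMGCS1, IDI1, and FDFT1 overlap non-coding genes on the opposite strand over 3239, 3438, and 217 of their exonic bases. These genes were not among those counted, so their levels could not be set beside the members.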

How the data were processed

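RNA-seq libraries (TruSeq Stranded mRNA per the labels, total RNA per the study's methods) of 24 SKBr3 samples were sequenced, and the authors mapped reads with HISAT2 to GRCh37 and assembled transcripts with StringTie. The deposited table holds raw read counts per gene, 14493 genes in all, each with at least 1 read in every library, and totals of 29405121 to 44316330, so precision was limited by replicate spread rather than by member depth. Counting and strand settings are not given in the sources used here. All columns were assigned by name. Whether replicates were separate cultures is not stated, so SD and p may reflect technical spread.

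Counts were tested with edgeR 4.0.16 (R 4.3.3; TMM, filterByExpr, glmQLFit, glmQLFTest), each pair of groups alone, with 1 contrast of means over all 24 libraries. A call needed an adjusted p under 0.05 over all genes tested. Levels were TMM-scaled CPM, log2 CPM used a prior count of 2, and intervals were 95%. Replicate numbers come from the labels. They were taken to pair samples where all 3 same-number correlations of deviations from group means exceeded 0.1, which held for TVB-3166 against ND-646 alone (0.204 to 0.371). Alternatives were DESeq2 1.42.0, DESeq2 size factors, library totals, no filter, a minimum of 10 counts, all libraries in 1 fit, the replicate block, a 2-fold rule with an unadjusted p under 0.05, and leaving out each library. A fit of all libraries uses a variance per gene shared by all groups, the more variable FASTIS groups included. Leaving out ND-646 replicate 1 and day-0 replicate 1 together, or from sums, shares, and levels per kilobase, was added after seeing the data. The procedure was tested on data simulated from ND-646 against day-0 cells. There edgeR recovered 59 of 100 genes changed 2-fold and 94 of 99 changed 4-fold, with 6 false calls. DESeq2 recovered 71 and 96 of them, with 48 false calls. A 2-fold change could thus go uncalled. Exon lengths and overlaps came from a GENCODE annotation on GRCh37.

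The members and gene lists were chosen with earlier results of these data known. Named were all 9 members, for each list the genes with the 2 largest absolute changes in either FASTIS group, overlapping genes, and the 5 genes most like the members in pattern. In text, GGPS1 and SREBF2 were named after their values were seen. Some further genes of the pathway are not reported here.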

Additional observations from a re-analysis of the deposited data

Results flagged for a closer look

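The changes of the 9 genes differed between FASTIS cells and the cells of the other 4 drugs by a test of the difference itself, the contrast of means over all 24 libraries in edgeR. Its p-values rest on a variance per gene shared by all groups, although the sum of the members spread more in FASTIS groups than elsewhere. The log2 differences, FASTIS minus other drugs, were 2.14 (edgeR adjusted p = 2.74e-09) for FDPS, 1.69 (edgeR adjusted p = 3.56e-08) for MVD, 1.52 (edgeR adjusted p = 1.79e-10) for IDI1, 1.41 (edgeR adjusted p = 1.71e-06) for ACAT2, 1.32 (edgeR adjusted p = 1.01e-09) for HMGCS1, 1.24 (edgeR adjusted p = 1.85e-08) for FDFT1, 1.07 (edgeR adjusted p = 7.79e-08) for SQLE, 0.53 (edgeR adjusted p = 0.0027) for MVK, and 0.47 (edgeR adjusted p = 0.00138) for PMVK. With 3 samples a group, no group was large enough for a test of single outlying samples.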

How the results depend on the processing

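Of 446 counts of members recomputed under an alternative, 399 stayed within 1.5 times the reported count, and of 1872 member fold-changes 71 changed their call. No called value changed sign, and in 48 settings an uncalled value did. The 6 higher members of ND-646 and TVB-3166 cells against day-0 cells kept their calls under every alternative run. Where a count moved, the cause was not tested. Under the 2-fold rule, the counts against day-0 cells became 0 higher and 1 lower with bleomycin, 0 and 0 with alisertib, 0 and 0 with doxorubicin, and 0 and 1 with palbociclib, and against day-7 cells 0 and 0 with bleomycin, 0 higher with alisertib, 0 and 0 with doxorubicin, and 1 lower with palbociclib. With all 24 libraries in one fit, the counts against day-0 cells were 0 lower with alisertib, 1 lower with doxorubicin, and 0 higher with palbociclib, those against day-7 cells were 0 higher with bleomycin, 1 higher with alisertib, and 1 higher and 0 lower with doxorubicin, and 1 member was higher with TVB-3166 than with ND-646. The 1 lower member with alisertib against day-0 cells became 0 with DESeq2 size factors, library totals, no filter, and the minimum of 10 counts. Library totals also left 0 higher with bleomycin against day-7 cells, and DESeq2 called 2 higher in day-7 against day-0 cells.

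The replicate block gave 2 higher members with bleomycin and 2 in day-7 cells against day-0 cells and 1 in TVB-3166 against ND-646 cells. Outside the last comparison the rule for pairing was not met, although single same-number correlations reached 0.301 (bleomycin against day-0 cells). In those unpaired comparisons the block moved the count of higher members by more than 1.5 times in the bleomycin and day-7 cases alone. Leaving out 1 library gave 0 to 1 lower members for ND-646 against day-0 and day-7 cells (MVK, without ND-646 replicate 1, and 1 lower also without that library and day-0 replicate 1 together), 0 to 1 lower with alisertib against day-0 cells, 0 to 1 higher with bleomycin and 1 to 2 higher with doxorubicin against day-7 cells.

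Scaling by library totals moved the median of all genes by up to -0.20 (log2, ND-646 against day-7 cells), and the percent of calls that were higher went from 50.5% to 39% for ND-646, 47.5% to 69.6% for alisertib, 48.9% to 61% for doxorubicin, 48.9% to 61.9% for palbociclib, and 66.2% to 87.5% for day-7 cells, each against day-0 cells. Against day-7 cells it went from 50.2% to 29.4% for ND-646, 49.3% to 38.5% for TVB-3166, and 49.1% to 34.4% for bleomycin, and it went from 72.4% to 89.7% for TVB-3166 against ND-646 and from 51.6% to 29.8% for the contrast of means. The summed level of the members then was 1222 CPM in day-7, 1675 CPM in alisertib, 1357 CPM in doxorubicin, and 1046 CPM in palbociclib cells, beyond 1 SD of the TMM values. Depth did not limit the members, each with at least 282 reads in every library.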
